A study of Mus musculus with 6 samples.

Results

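The genes described here are 44 mouse DNA repair genes: those of non-homologous end joining, the choice between break repair pathways, the PARP enzymes and single-strand break repair, base excision repair, mismatch repair, nucleotide excision repair and direct reversal of damage. They were chosen by name, as textbook members of these pathways other than homologous recombination, and 41 of the 44 were in the count table of 10616 genes. RNA was sequenced from KPC cells, cultured cancer cells of a mouse pancreatic tumour. Cells of both groups had been transduced with a pLKO.1 lentivirus and selected with puromycin, and they differed in the hairpin it carried: 3 libraries came from cells with a hairpin against Brca2 (shBrca2) and 3 from cells with a control hairpin (shControl). For each library, 10000 cells that excluded propidium iodide, a dye that enters dead cells, were sorted from growth medium, and poly(A) RNA was made into 3' end libraries by a variation of MARS-seq. The hairpins were compared in 1 line, the labels give no strain, and what a replicate was is not clear, so p-values measure only the spread between these libraries, which may be technical.

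Cells repair a broken double strand either by homologous recombination, which needs BRCA2, or by joining the ends. The other pathways act on damage to 1 strand: base excision removes a damaged base and seals the gap, mismatch repair removes errors of replication, and nucleotide excision cuts out a short stretch around a bulky lesion. Cells that lack BRCA2 lose homologous recombination and come to depend on PARP enzymes and on polymerase theta, which is the basis of PARP inhibitor treatment. The comparison of shBrca2 with shControl asked whether transcripts of these other repair pathways differ when Brca2 is knocked down.

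Among the repair genes in the table, 0 of 39 with an adjusted p passed the test in either direction (DESeq2 likelihood ratio test, Benjamini-Hochberg adjusted p under 0.1, absolute log2 fold change over 0.5 and base mean over 5; the base mean is the mean normalized count over the 6 libraries, a normalized count being a count divided by its library's size factor). Of all genes with an adjusted p, 1.27% passed, 0.77% with higher and 0.5% with lower counts in shBrca2, and beside so small a share a count of 0 says nothing particular about the repair genes. An unadjusted p under 0.05 was found for 4 of the 41, Msh3 with a higher count in shBrca2 and Ercc1, Xrcc1 and Rad23b with lower ones, beside 8.33% of all genes tested. The edgeR quasi-likelihood test also called 0 of the 37 it could fit, with an unadjusted p under 0.05 for 6, the same 4 with Trp53bp1 and Ung. Over all genes edgeR fitted, 1.33% were called and 14.5% had an unadjusted p under 0.05. The gene nearest to the threshold was Ercc1, which encodes a subunit of a nuclease of nucleotide excision repair, at 0.591 times its shControl level (adjusted p = 0.119). Ercc1 passed the threshold in 4 of 11 alternative settings and in 1 of 6 fits without 1 library, given with its values below.

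Brca2 itself followed the labels. Raw counts of 10, 11 and 14 in the knockdown faced 33, 52 and 33 in the control (log2 fold change -1.61, SE 0.44, DESeq2 adjusted p = 0.029). On counts this low the call was lost without shBrca2 replicate 2, shBrca2 replicate 3 or shControl replicate 2, at DESeq2 adjusted p of 0.152, 0.233 and 0.371. Some alternative settings gave Brca2 no adjusted p, and they are named at the end. Total counts ranged from 1519340 to 2452467 per library, and a two-sided exact permutation test between the groups gave p = 0.8 (the smallest p this design allows is 0.1). Of the epithelial markers, 6 of 6 were in the table, with summed normalized counts of 16510 to 17300 in shBrca2 and 17430 to 18540 in shControl, although Epcam was close to 0, with raw counts of 3 to 10. Most of that sum was Krt18, Krt19 and Krt8, while Krt7 passed the test with a higher count in shBrca2 (2.31-fold, DESeq2 adjusted p = 2.07e-06) and Cdh1 stood at 1.25-fold without passing it (DESeq2 adjusted p = 0.69). Fibroblast markers were limited to Col1a2 (1 of 6), immune markers to Cd68 (1 of 4), and 0 of 3 endothelial and 0 of 4 acinar markers were in the table. Fewer cells with a transcript and less of it in each cell cannot be told apart in such bulk libraries.

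Sequence around the starts of these genes was examined for the genes that the results turn on and for the E2F motif, the letters bound by factors that drive genes of DNA synthesis. Promoters from RefSeq on GRCm38.p6 (250 bases before to 50 after a transcript start) were available for 34 of the 41 genes. Each line below is a window of 24 bases, 5′ to 3′ on the strand of the gene, with only the motif named in the line in capitals. CCGCCC and ATTGG are the GC box and CCAAT read on the other strand. The Rad23b window also ends in a GC box, left in lower case. The GC box is bound by Sp1 and CCAAT by NF-Y. The first 3 windows belong to the genes with lower counts in shBrca2 at an unadjusted p under 0.05, and the others are E2F matches. The E2F match of Msh3 is not reported here as a window.
Ercc1 GC box, chr7:19344982-19345005, plus strand: agcttccatCCGCCCcaaaccaca
Xrcc1 CCAAT, chr7:24546603-24546626, plus strand: ttacaaggcATTGGggaaccaagg
Rad23b CCAAT, chr4:55349930-55349953, plus strand: gccccgcctCCAATtcccgggcgg
Xrcc6 E2F, chr15:82016315-82016338, plus strand: gggtggaaGCGGGAAAtgcgagtg
Nthl1 E2F, chr17:24632542-24632565, plus strand: cgcgcgccTTTCGCGCgcaggtcc
Msh6 E2F, chr17:87975057-87975080, plus strand: ctcccgacTTTCCCGCcagcggcg

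The E2F letters searched (TTTCCCGC, TTTCGCGC, TTTGGCGC and TTTGCCGC, on both strands) were in 4 of 34 promoters of the repair genes (11.8%), in 4.4% of 8544 promoters of genes in the table and in 2.3% of all 27025 promoters. The 4 genes with the letters, Msh3, Msh6, Xrcc6 and Nthl1, had log2 fold changes of 0.81, -0.090, 0.093 and -0.20, so they did not share a direction. CCAAT stood in 55.9% of the repair gene promoters and 39.0% of those of genes in the table. The GC box (GGGCGG) stood in 70.6% and 66.7%, the E-box (CACGTG) in 20.6% and 10.7%, the NRF1 letters (GCGCATGC) in 14.7% and 5.8%, the CHR (TTTGAA) in 5.9% and 11.4%, and the cyclic AMP element (TGACGTCA) in 0.0% and 3.4%. The search covered both strands and no motif contains another, although windows can overlap. A match is a run of letters and not a known binding site.

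**Figure D1:**
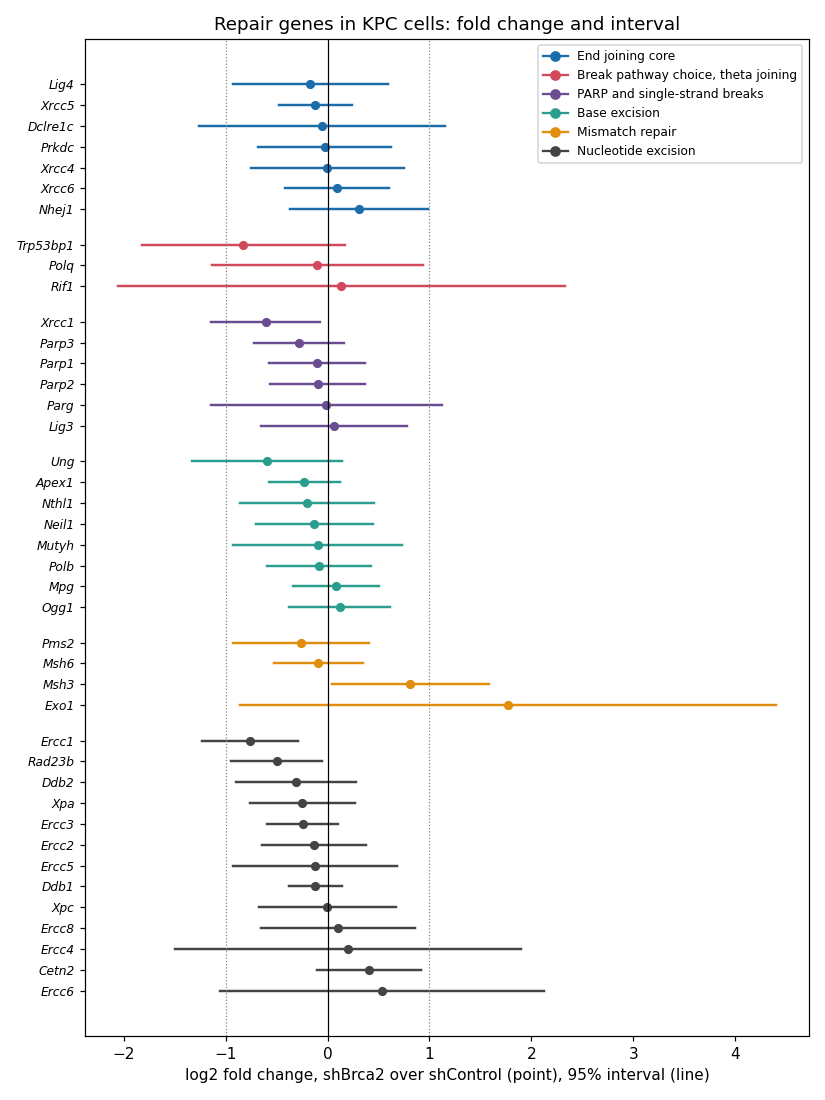
The log2 fold change of shBrca2 over shControl (points, x axis) with its 95% interval (lines) is plotted for the 41 repair genes in the table, grouped and coloured by role (y axis). The dotted lines mark a halving and a doubling; 29 intervals lie between them, and those of Ercc1, Xrcc1 and Rad23b lie below 0 while that of Msh3 lies above it.

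In the core of non-homologous end joining, 0 of 7 genes passed the test, and the log2 fold changes ran from -0.17 to 0.31. Xrcc5 and Xrcc6 encode the subunits of Ku, which binds a broken end and recruits the kinase encoded by Prkdc. The normalized count of Xrcc5, the core gene with the highest base mean, was 185, 194 and 195 in shBrca2 and 199, 206 and 219 in shControl. Every shBrca2 library lay under every shControl library, by a narrow margin: the means were 191 ± 5.29 and 208 ± 9.84 (SD, n = 3 each). Its log2 fold change was -0.12 (SE 0.18, DESeq2 adjusted p = 0.943), and the 95% interval ran from 0.719 to 1.18 times the control level. Xrcc6, the partner of Xrcc5, had 131, 86.0 and 172 in shBrca2 against 128, 131 and 106 in shControl. Its shBrca2 libraries spread on both sides of the controls, and the ratio of Xrcc5 to Xrcc6 counts ranged from 1.13 to 2.25 in shBrca2 and from 1.55 to 2.07 in shControl.

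Prkdc, the catalytic subunit of the DNA-dependent kinase, had means of 40.5 ± 7.16 in shBrca2 and 41.5 ± 6.33 in shControl (SD, n = 3 each). Xrcc4 and Lig4, the scaffold and the ligase that seal the ends, had means of 35.2 against 35.8 and 29.2 against 33.3. Nhej1, which encodes XLF, a partner of XRCC4, had the largest positive log2 fold change of the core, 0.31 (SE 0.35, DESeq2 adjusted p = 0.907), from 40.9, 46.3 and 35.7 in shBrca2 and 28.3, 36.9 and 33.6 in shControl. The groups overlapped in 1 pair of libraries, shBrca2 replicate 3 and shControl replicate 2. Dclre1c, the nuclease Artemis that trims ends, was measured at 6.06 to 14.8 normalized counts, and its 95% interval, from 0.416 to 2.22 times the control level, held both a halving and a doubling.

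Break pathway choice was the least well measured group. Trp53bp1 encodes the chromatin-bound protein that shields ends from resection and so favours end joining, and its loss is known to restore recombination in BRCA1-deficient cells. Its normalized count was 9.54, 19.9 and 8.70 in shBrca2 and 19.2, 25.2 and 23.7 in shControl. Replicates 1 and 3 of shBrca2 were under every control, while replicate 2 lay above shControl replicate 1, so the groups overlapped. The means were 12.7 ± 6.21 and 22.7 ± 3.11 (SD, n = 3 each), the log2 fold change was -0.83 (SE 0.51), the lowest of the 41 genes, and the test was not passed (DESeq2 adjusted p = 0.71, 95% interval 0.283 to 1.12 times the control level). Polq, polymerase theta of microhomology-mediated joining, had 21.8, 12.3 and 11.3 in shBrca2 and 11.1, 17.6 and 18.8 in shControl. Both groups held low and high libraries, and the log2 fold change was -0.10 (SE 0.53, DESeq2 adjusted p = 0.988) with a 95% interval from 0.455 to 1.91 times the control level, which leaves room for either a halving or nearly a doubling. Rif1, which acts with 53BP1 at the break, had 1.36, 1.89 and 7.83 in shBrca2 and 1.01, 2.52 and 6.92 in shControl, and its base mean of 3.59 was under the filter of 4.64 for an adjusted p.

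For Parp1, Parp2 and Parp3 the intervals reached neither a halving nor a doubling. Parp1 and Parp2 encode the enzymes that PARP inhibitors block, and they mark single-strand breaks with ADP-ribose chains. The normalized count of Parp1 was 106, 92.6 and 82.7 in shBrca2 and 89.9, 115 and 94.9 in shControl. Neither group stood apart, and the log2 fold change was -0.10 (SE 0.24, DESeq2 adjusted p = 0.974) with a 95% interval from 0.673 to 1.29 times the control level. Parp2 had 102, 80.4 and 121 against 108, 103 and 114, and its 95% interval ran from 0.676 to 1.29.

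Parp3, whose enzyme acts in end joining, had the highest base mean of this group, with 110.3, 109 and 98.3 in shBrca2 and 147, 132 and 107 in shControl. Only shControl replicate 3 came down among the shBrca2 libraries, and the log2 fold change was -0.28 (SE 0.23, DESeq2 adjusted p = 0.852). Parg, the hydrolase that removes ADP-ribose chains, was low, at 8.51 to 14.8 normalized counts over the 6 libraries, with a log2 fold change of -0.014 (SE 0.58).

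Xrcc1 had the second smallest p of the repair genes. It encodes the scaffold that ADP-ribose recruits to single-strand breaks and that holds DNA ligase III and polymerase beta in place. Its normalized count was 43.6, 70.0 and 54.0 in shBrca2 and 87.9, 85.5 and 84.0 in shControl. The 3 controls were within a few counts of each other, and every shBrca2 library lay under them. The means were 55.8 ± 13.3 and 85.8 ± 1.95 (SD, n = 3 each), or 0.656 times the control level with a 95% interval from 0.453 to 0.951. This gave a log2 fold change of -0.61 (SE 0.27), an unadjusted p of 0.0259 and a DESeq2 adjusted p of 0.457. Lig3, the ligase that XRCC1 stabilises, had 23.2, 45.4 and 45.3 in shBrca2 and 39.4, 40.3 and 30.7 in shControl, and its groups overlapped. The ratio of Xrcc1 to Lig3 counts was 1.88, 1.54 and 1.19 in shBrca2 and 2.23, 2.12 and 2.74 in shControl, a description of a pair chosen after its values were seen. The gene lies on chromosome 7 at 24546699 to 24573438 (plus strand, GRCm38.p6), and its exons overlap those of Pinlyp on the opposite strand, a gene not analysed here.

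Base excision genes were measured at 8 of 9, with Tdg, a thymine glycosylase, not analysed here. The glycosylases cut out a damaged base, each for a different kind of damage. Ung, the glycosylase that removes uracil from DNA, had 20.4, 24.6 and 27.9 normalized counts in shBrca2 and 42.4, 35.2 and 33.6 in shControl. All 3 shBrca2 libraries were under all 3 controls, with means of 24.3 ± 3.72 and 37.1 ± 4.70 (SD, n = 3 each). The log2 fold change was -0.60 (SE 0.38, DESeq2 adjusted p = 0.724), and the interval from 0.397 to 1.1 times the control level included no difference.

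Apex1, the endonuclease that cuts beside the vacant site, had the highest base mean of the base excision genes. Its normalized count was 335, 467 and 332 in shBrca2 and 411, 452 and 465 in shControl. The shBrca2 libraries lay on both sides of the controls, since replicate 2 was the highest of the 6, and the log2 fold change was -0.23 (SE 0.18, DESeq2 adjusted p = 0.844). Polb, the polymerase that fills the gap, showed the reverse order of the shBrca2 libraries, with 139, 76.6 and 155 against 126, 147 and 119.6 in shControl. Ogg1, which removes oxidised guanine, had 89.9, 85.1 and 108 in shBrca2 and 69.7, 91.4 and 99.9 in shControl, and Mutyh, which removes adenine opposite it, had means of 21.8 ± 2.69 and 23.2 ± 1.33 (SD, n = 3 each). Nthl1 and Neil1, glycosylases for oxidised pyrimidines, and Mpg, for alkylated bases, had log2 fold changes of -0.20, -0.13 and 0.085. In each of these 5 genes the group means differed by less than the larger of the group SDs.

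**Figure D2:**
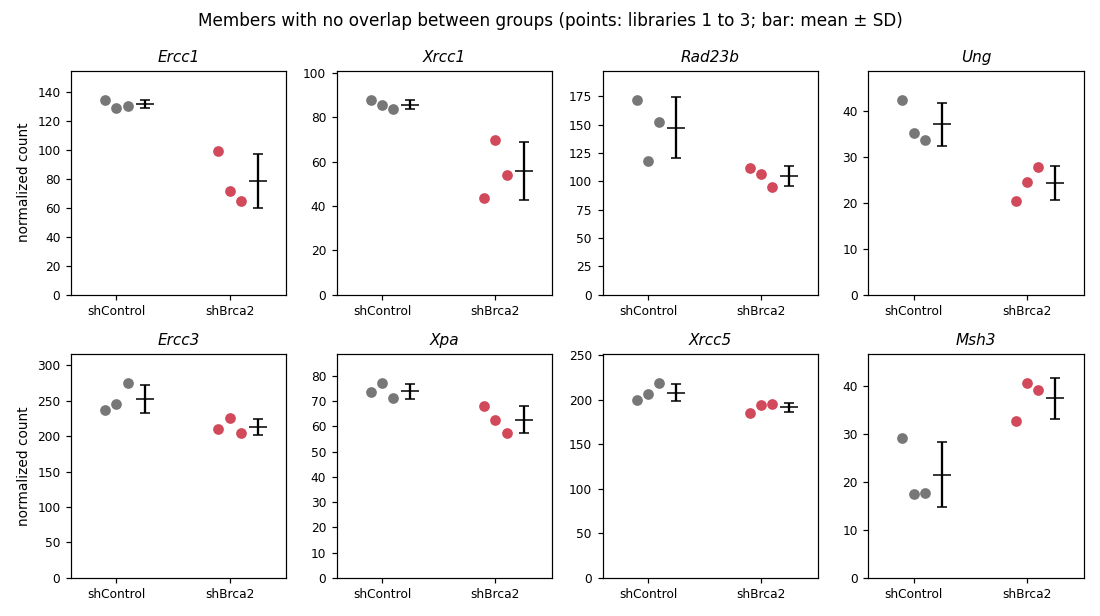
Normalized counts (y axis, starting at 0) of the 8 repair genes whose groups did not overlap are plotted for each library (points, replicates 1 to 3 from left to right) with the group mean and SD (bars). The 3 shControl libraries of Ercc1 lie between 129 and 134, above the 3 of shBrca2, and Msh3 is the 1 gene of the 8 with the higher values in shBrca2.

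Mismatch repair held the 1 gene with a higher count in shBrca2 at an unadjusted p under 0.05. Msh3 encodes a protein that recognises insertion and deletion loops, while Msh6 encodes one that recognises single mispaired bases. The normalized count of Msh3 was 32.7, 40.7 and 39.2 in shBrca2 and 29.3, 17.6 and 17.8 in shControl. The groups did not overlap, although shControl replicate 1 came close to the lowest shBrca2 library. The means were 37.5 ± 4.23 and 21.6 ± 6.70 (SD, n = 3 each), or 1.75 times the control level with a 95% interval from 1.03 to 3.0. This gave a log2 fold change of 0.81 (SE 0.39), an unadjusted p of 0.0393 and a DESeq2 adjusted p of 0.539. Groups without overlap and with the higher values in shBrca2 were found for 10.2% of all genes, and for 1 of the 41 repair genes.

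Msh6 had 116, 102 and 140.1 normalized counts in shBrca2 and 139, 126 and 117 in shControl. The groups overlapped throughout, and the log2 fold change was -0.090 (SE 0.22, DESeq2 adjusted p = 0.975), a sign that turned without shBrca2 replicate 2 (log2 fold change 0.014). The ratio of Msh3 to Msh6 counts, a pair chosen after its values were seen, was 0.282, 0.398 and 0.28 in shBrca2 and 0.21, 0.14 and 0.153 in shControl, so these ratios did not overlap either. Pms2, the endonuclease subunit that acts after mismatch recognition, had means of 35.3 ± 3.48 and 42.2 ± 8.12 (SD, n = 3 each). Exo1, the exonuclease that removes the strand with the error and also resects broken ends, had the largest fitted log2 fold change of the 41 genes, 1.77, but from raw counts of 3, 7 and 3 in shBrca2 and 4, 0 and 0 in shControl. At such counts a ratio carries little information, and Exo1 had no adjusted p.

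Msh3 lies on chromosome 13 at 92211878 to 92355004 (minus strand, GRCm38.p6).

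Nucleotide excision repair was represented by 13 of 13 genes, among them 2 of the 3 genes with a lower count in shBrca2 at an unadjusted p under 0.05. Recognition of the lesion is carried out by XPC with RAD23B and centrin 2, or by the complex of DDB1 and DDB2 for ultraviolet damage. Rad23b had 112, 107 and 94.9 normalized counts in shBrca2 and 172, 118 and 152 in shControl. The shBrca2 libraries lay under the controls, with shControl replicate 2 the closest to them. The means were 105 ± 8.67 and 147 ± 27.1 (SD, n = 3 each), and the log2 fold change was -0.50 (SE 0.23, unadjusted p = 0.0291, DESeq2 adjusted p = 0.483), or 0.708 times the control level with a 95% interval from 0.519 to 0.965. Rad23b lies on chromosome 4 at 55350042 to 55392237 (plus strand, GRCm38.p6), and no other gene of the annotation overlaps its exons.

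Transcripts of the partners of RAD23B had overlapping groups. Xpc, the lesion sensor, had means of 38.7 ± 4.99 and 38.9 ± 8.74 (SD, n = 3 each). Cetn2, centrin 2, had 85.8, 138 and 138 in shBrca2 against 73.8, 88.9 and 113 in shControl, a log2 fold change of 0.41 in the opposite direction (SE 0.26, DESeq2 adjusted p = 0.732).

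Ddb1 had by far the most counts of the repair genes and took up 42 to 44.9% of all their counts in each library. It encodes the adaptor of the CUL4 ubiquitin ligases, which serve many processes besides repair. The normalized count was 2053, 2293 and 2171 in shBrca2 and 2167, 2435 and 2475 in shControl. The libraries spread by no more than 1.21-fold from lowest to highest, the groups overlapped, and the log2 fold change was -0.12 (SE 0.13, DESeq2 adjusted p = 0.907) with a 95% interval from 0.769 to 1.1 times the control level. Ddb2, the subunit that binds the lesion and a known p53 target, had 36.8, 59.6 and 54.8 in shBrca2 and 63.7, 54.5 and 71.2 in shControl, which also overlapped.

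Ercc2, Ercc3 and Xpa act next: the helicases of the transcription factor TFIIH open the strands and XPA holds the opened complex. Ercc3 had 209.8, 226 and 205 normalized counts in shBrca2 and 237, 246 and 275 in shControl. Xpa had 68.1, 62.4 and 57.4 against 73.8, 77.2 and 71.2. In both genes all shBrca2 libraries were under all controls, but the differences were small: the log2 fold change was -0.24 for Ercc3 (SE 0.18, DESeq2 adjusted p = 0.808) and -0.25 for Xpa (SE 0.26, DESeq2 adjusted p = 0.903). Ercc2, the other helicase, had means of 69.8 ± 7.62 and 76.9 ± 5.44 (SD, n = 3 each), with overlap.

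Ercc1 had the smallest p of the repair genes. ERCC1 binds XPF, the product of Ercc4, and the pair cuts the damaged strand on the 5′ side of the lesion; it also trims ends in some forms of end joining. The normalized count of Ercc1 was 99.4, 71.8 and 64.4 in shBrca2 and 134, 129 and 131 in shControl. The controls were close together, every shBrca2 library lay under them, and shBrca2 replicate 1 was the nearest to them. The means were 78.6 ± 18.5 and 131 ± 2.72 (SD, n = 3 each), or 0.591 times the control level with a 95% interval from 0.426 to 0.82. The log2 fold change was -0.76 (SE 0.24), with an unadjusted p of 0.0017, rank 143 among all genes, and a DESeq2 adjusted p of 0.119. That value became 0.0389 without shBrca2 replicate 1 and 0.0863 with 1 surrogate variable in the model, an alternative chosen after seeing the data. It was 0.0914 with TMM factors, 0.0949 with total counts as size factors and 0.0995 when genes were kept only with 10 or more counts in 3 or more libraries, and Ercc1 passed the test under each of these settings. With those factors and that filter the log2 fold change hardly moved, at -0.757, -0.758 and -0.752. Ercc1 did not pass by edgeR (quasi-likelihood adjusted p = 0.109) or by the Wald test (DESeq2 adjusted p = 0.11). Without the filter for an adjusted p it did not pass either (DESeq2 adjusted p = 0.126). When each library was left out in turn, the adjusted p ranged from 0.0389 to 0.684 and the log2 fold change from -0.95 to -0.63.

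The place of Ercc1 in the genome bears on its count. It lies on chromosome 7 at 19344067 to 19356524 (plus strand, GRCm38.p6), and its 3' end overlaps that of Cd3eap, which runs the other way at 19356007 to 19359483 and encodes a subunit of RNA polymerase I. Whether the counting used strand is not given in the sources used here, so reads of the overlap could have been assigned to either gene or to neither. Cd3eap had 131, 126 and 115 normalized counts in shBrca2 and 124, 125 and 140.4 in shControl, or 0.951 times the control level (DESeq2 adjusted p = 0.984). The ratio of Ercc1 to Cd3eap counts was 0.76, 0.571 and 0.561 in shBrca2 and 1.08, 1.03 and 0.93 in shControl, without overlap. Ercc2, further along the same chromosome, had a log2 fold change of -0.14 with overlapping groups, and the ratio of Ercc1 to Ercc2 counts was 1.55, 0.916 and 0.961 in shBrca2 and 1.9, 1.64 and 1.61 in shControl. These ratios describe pairs chosen after their values were seen and were not tested. Klc3, which encodes a kinesin light chain and whose exons overlap those of Ercc2 on the opposite strand, had 2.72, 10.4 and 6.09 normalized counts in shBrca2 and 27.3, 21.0 and 17.8 in shControl. The groups of Klc3 did not overlap, as for 10.1% of all genes with lower values in shBrca2. Its log2 fold change was -1.73 (SE 0.59, DESeq2 adjusted p = 0.163), from raw counts of 2 to 27, and it did not pass the test.

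The remaining genes of this pathway had few counts. Ercc4, the partner of Ercc1, had 5.45, 9.45 and 4.35 normalized counts in shBrca2 and 1.01, 5.87 and 9.89 in shControl, and its 95% interval, from 0.354 to 3.73 times the control level, was too wide to compare it with Ercc1. Ercc5, the nuclease XPG that cuts on the 3′ side, had means of 26.4 ± 6.77 and 29.0 ± 7.79 (SD, n = 3 each). Ercc6 and Ercc8, the Cockayne syndrome genes that act where RNA polymerase stalls, had means of 6.94 against 4.79 and 31.5 against 29.2. Mgmt, which reverses alkylation of guanine directly, and Aptx, which repairs failed ligation, were not analysed here.

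**Figure D3:**
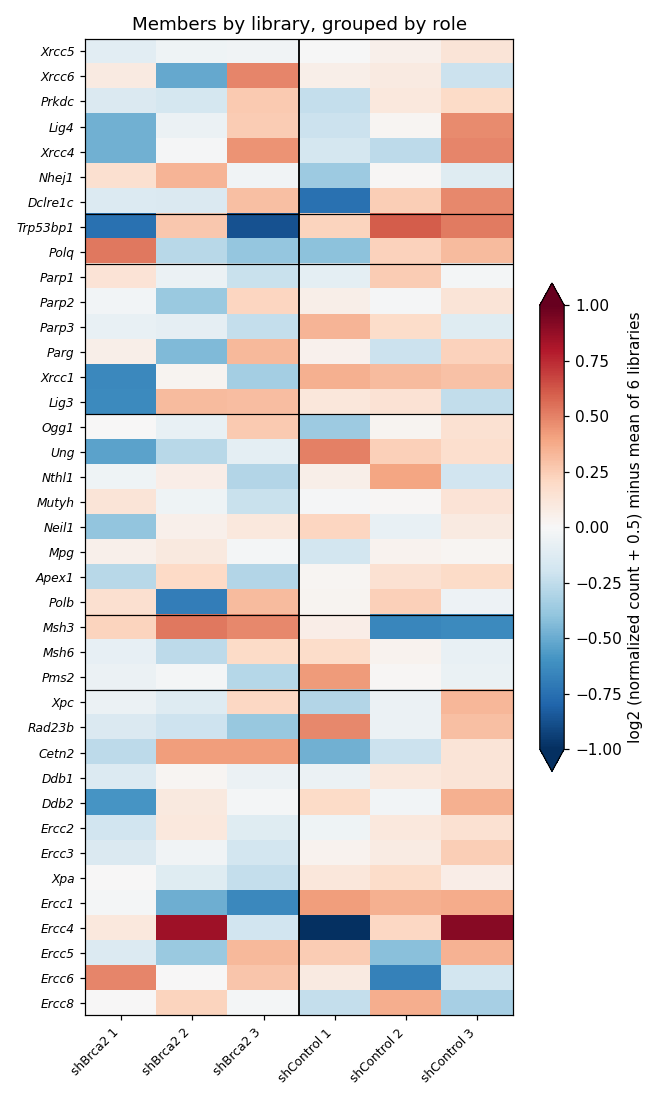
The colour gives log2 (normalized count + 0.5) minus the mean of the 6 libraries for the 39 repair genes with a base mean over 5 (rows, ordered by role, black lines between roles) in each library (columns), on a scale that stops at 1 in each direction; 1 value, of Ercc4, lies beyond it. Xrcc1, Ung and Ercc1 are blue or pale in all shBrca2 columns and red in all shControl columns. Msh3 is red or pale in all shBrca2 columns, pale in shControl replicate 1 and blue in shControl replicates 2 and 3. Most other rows mix both colours within a group.

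Over the repair genes as a group, 29 of 41 log2 fold changes were negative (70.7%, beside 50.1% of all genes) and the median was -0.099, beside -0.00034 for all genes. Genes are not replicates, so this is a description with no test. The median log2 deviation of the genes from the shControl mean was -0.13, -0.13 and 0.053 in shBrca2 and -0.059, -0.010 and 0.072 in shControl, so shBrca2 replicate 3 lay within the range of the controls. Groups without overlap and with lower values in shBrca2 were found for 7 of 41 genes (Xrcc5, Xrcc1, Ung, Rad23b, Ercc3, Xpa and Ercc1), beside 10.1% of all genes. The lean to negative values was not stable: without shBrca2 replicate 2, 20 genes were positive and 21 negative. The share of a library's counts taken by these genes was 0.228, 0.246 and 0.245% in shBrca2 and 0.244, 0.268 and 0.278% in shControl, which also overlapped.

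Proliferation genes leaned the same way. Of 23 such genes, all in the table, 19 had negative log2 fold changes with a median of -0.19. By DESeq2 0 passed the test and 1, Bub1, had an unadjusted p under 0.05, with a higher count in shBrca2, beside 4.45% of all genes. By edgeR 0 of 22 fitted were called and 3 had an unadjusted p under 0.05, beside 14.5% of all genes. These were Bub1, Aurka and Aurkb, the last with DESeq2 log2 fold changes of -0.31 (Aurka) and -0.37 (Aurkb). Groups did not overlap for 3 genes lower in shBrca2 and 0 higher, beside 10.1% and 10.2% of all genes. Their summed normalized counts were 5827 to 6210 in shBrca2 and 6664 to 6888 in shControl. Their part in the lean of the repair genes was not tested. Of 12 p53 target genes in the table, 7 were negative with a median of -0.015. By DESeq2 0 passed the test and 1, Gtse1, had an unadjusted p under 0.05, with a lower count in shBrca2, beside 3.88% of all genes. By edgeR 0 of 11 fitted were called and 1, again Gtse1, had an unadjusted p under 0.05, beside 14.5% of all genes.

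The precision of these libraries sets what could have been seen. The SD of a repair gene within a group was 16.5% of its mean at the median over the genes, and 3.96 to 93.1% at the extremes. For 29 of the 41 genes the 95% interval excluded both a halving and a doubling, and for 7 it lay within 1.5-fold in both directions. It reached a halving for 10 genes and a doubling for 7, most of them with few counts. For Trp53bp1, Polq, Ercc4 and Ercc6, among others, a halving could not be told from no difference at this depth.

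**Figure D4:**
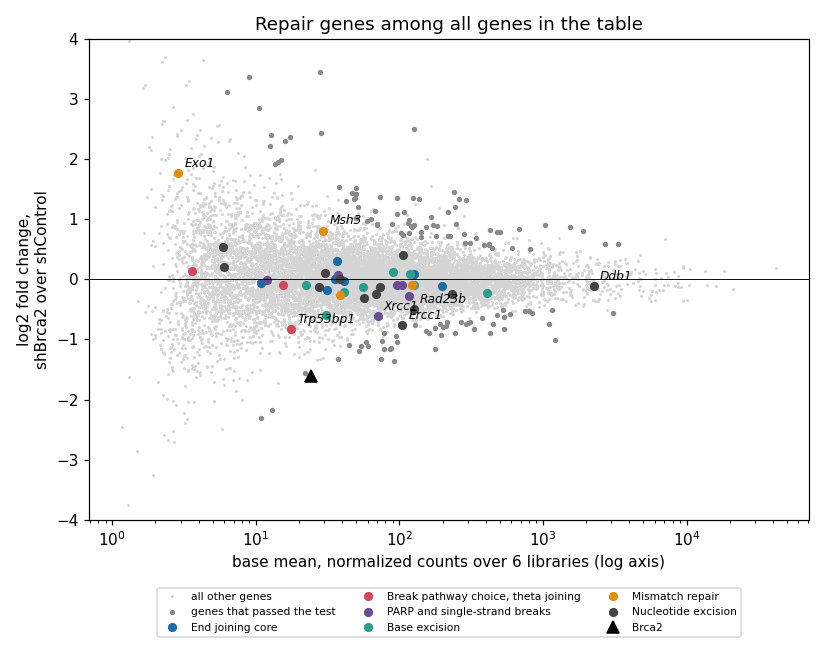
The log2 fold change of shBrca2 over shControl (y axis) is plotted against the base mean over 6 libraries (x axis, log scale) for all genes in the table, with the repair genes coloured by role and Brca2 as a triangle; 6 genes lie outside the plotted limits. The repair genes lie within the cloud of genes that did not pass the test, with Ercc1 at its lower edge, while Brca2, at -1.61, stands under it.

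Other genes of the same pathways were read from a list of their own. Of 58 listed genes outside the 44, 52 were in the table, 51 had an adjusted p and 0 passed the test. An unadjusted p under 0.05 was found for 1 with a higher count in shBrca2 and 3 with a lower one, beside 4.45% and 3.88% of all genes, and the median log2 fold change was -0.073. The edgeR quasi-likelihood test also called 0, of 49 fitted, with an unadjusted p under 0.05 for 11, beside 14.5% of all genes by that tool.

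Mad2l2 had the smallest p of these genes. It encodes a subunit of shieldin, which acts with 53BP1 to protect ends, and of polymerase zeta. Its normalized count was 301, 161 and 257 in shBrca2 and 349.6, 405 and 364 in shControl. The groups did not overlap, with shBrca2 replicate 2 the lowest, and the log2 fold change was -0.65 (SE 0.21, DESeq2 adjusted p = 0.155). It passed the test without shBrca2 replicate 1 and with 1 surrogate variable in the model, and in no other setting tried. Pold1, the catalytic subunit of polymerase delta, had 178, 171 and 169 against 221, 246 and 247, with a log2 fold change of -0.46 (SE 0.18, DESeq2 adjusted p = 0.322). Rfc5, a subunit of the clamp loader and the last of the 3, had a log2 fold change of -0.48 (DESeq2 adjusted p = 0.448). Among the genes with higher counts, Gtf2h2, a subunit of TFIIH, had 113, 100.2 and 94.0 in shBrca2 against 78.8, 62.1 and 75.2, with a log2 fold change of 0.51 (SE 0.25, DESeq2 adjusted p = 0.545). Ccnh, the cyclin of the TFIIH kinase, had 149.8, 114 and 134 against 101, 115 and 70.2, with a log2 fold change of 0.47 (SE 0.25, DESeq2 adjusted p = 0.592). The other TFIIH genes listed and in the table, Gtf2h1, Gtf2h3, Gtf2h4, Gtf2h5 and Cdk7, had log2 fold changes of -0.032, 0.21, -0.26, -0.17 and 0.23, on both sides of 0.

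For comparison, 17 of 19 homologous recombination genes other than Brca2 were in the table. Of these, 0 passed the test and 2 had an unadjusted p under 0.05, beside 8.33% of all genes tested. Both had lower counts in shBrca2: Rad51b (log2 fold change -1.11, SE 0.52, DESeq2 adjusted p = 0.509) and Xrcc2 (-0.69, SE 0.34, DESeq2 adjusted p = 0.56). By edgeR 0 of 17 were called, and 3 had an unadjusted p under 0.05, these with Bard1, beside 14.5% of all genes. The median of the 17 was -0.14. No difference between the recombination genes and the other repair genes was tested.

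Several repair genes start next to a gene that runs the other way, within 1000 bases, and such neighbours can share a promoter. Partners in the table were found for 10 repair genes, with starts 37 to 360 bases apart. The log2 fold changes of gene and partner had the same sign in 8 pairs and opposite signs in 2, Apex1 with Osgep (-0.23 and 0.094) and Parg with Timm23 (-0.014 and 0.26). The share of same signs among other neighbouring genes was not computed, so this count says nothing on shared control. Nthl1 and Tsc2, the gene of the tuberous sclerosis protein tuberin, had log2 fold changes of -0.20 and -0.27, and Cetn2 and Nsdhl, a gene of cholesterol synthesis, had 0.41 and 0.24. Pms2 and Aimp2 had -0.26 and -0.0095. Lig4 and Abhd13 had -0.17 and -0.97, but Abhd13 had means of only 4.21 and 8.13 normalized counts. None of the 10 partners passed the test, with DESeq2 adjusted p from 0.798 to 0.989. Of the 41 genes, 24 have exons that overlap a protein coding gene on the opposite strand, and the exons of Pms2 overlap those of Rsph10b on the same strand. Some of these overlaps, as of Nthl1 with Tsc2, are with a neighbour that starts next to the gene. Where in each gene the overlap lies was not recorded. The uncertainty given for Ercc1, which concerns its 3' end, may therefore hold for only some of the 24.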

How the data were processed

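The deposited table held raw counts per gene symbol, which the authors did not normalize or pool. Per the labels, these 3' end counts came from reads processed with bcl2fastq, cutadapt, STAR 2.4.2a and HTSeq on mm10. Annotation, strand and molecular identifiers are not given in the sources used here. Such counts do not grow with the length of a transcript. Every listed gene reached at least 6 counts in 1 library, and mm10 coordinates are given as GRCm38.p6.

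The repair genes and lists were chosen with earlier results of these data known. All genes were fitted in DESeq2 1.42.0 (R 4.3.3; median-of-ratios factors, likelihood ratio test of group, unshrunken fold changes), the test and thresholds of the study's methods, and 9997 genes had an adjusted p. Code was tested on simulated data. Alternatives were edgeR 4.0.16, the Wald test, other size factors, filters and thresholds, each library left out, and 1 surrogate variable (sva 3.50.0). Per-library values were given for Brca2, genes with an unadjusted p under 0.05 or without overlap, the gene of highest base mean in each role, and others where they are partners of these. Groups came from the source names, with no batch in the labels. No pair of libraries within a group matched within counting noise (chi-square per degree of freedom at least 4.15). Exon overlaps used GENCODE vM39 by gene name. Bases of a promoter are counted from the first listed transcript start. Some neighbouring and partner genes are not reported here.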

Additional observations from a re-analysis of the deposited data

How the results depend on the processing

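The count of repair genes past the threshold was 0, and it was 1, Ercc1 with a lower count in shBrca2, with TMM factors, with total counts as size factors, with genes kept only at 10 or more counts in 3 or more libraries, with 1 surrogate variable, and without shBrca2 replicate 1 (range 0 to 1 over the libraries left out). Other genes of the pathways passed at 1, Mad2l2, with 1 surrogate variable and without shBrca2 replicate 1 (range 0 to 1). All genes called numbered 127, 94 to 157 over the other alternatives and 47 to 140 over libraries left out, with 81 without shBrca2 replicate 1, 47 without shBrca2 replicate 3 and 55 without shControl replicate 2. Brca2 had no adjusted p, and so no call, with TMM factors, the filter of 10 counts in 3 libraries, or 1 surrogate variable. It passed under 8 of 8 alternatives that gave a value and in 3 of 6 fits without 1 library (log2 fold change -1.70 to -1.46). The median log2 fold change of the repair genes stayed negative in these fits (-0.18 to -0.05). The genes described in full, with Brca2 left out, gave 216 comparisons. Settings that change only a threshold reuse the main fit. In them no direction could change, and a stricter threshold could add no call. Of the 216, 210 kept their direction and side of the threshold, and 5 passed it (all Ercc1). The last 1, Msh6 without shBrca2 replicate 2, reversed to 0.014 (-0.23 to 0.014 over the libraries left out). The cause of these shifts was not tested. Fits without 1 library or with the filter on counts held fewer samples or genes than the main fit. Those with TMM factors, total counts as size factors or 1 surrogate variable held the same samples and genes. No paired analysis was possible because the labels give no replicate numbers, and those used here only follow the order in which the samples were listed. Depth limits the genes with few counts, whose intervals held a halving or a doubling.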
